A study of Homo sapiens with 6 samples.

Results

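AP-1 is a family of dimeric transcription factors built from JUN proteins (JUN, JUNB, JUND), FOS proteins (FOS, FOSB, FOSL1, FOSL2) and related partners, joined through a leucine zipper. Several of the genes, together with EGR1, a zinc finger factor, IER2, a short-lived nuclear protein, and MAFF, a small MAF factor that pairs with other leucine zipper proteins, belong to the immediate early genes, whose transcripts appear and vanish soon after serum, growth factors or stress reach a cell. Kinases of the ERK, JNK and p38 families pass on these signals, and AP-1 is known in glioma cells for its link to proteases and cytokines. These 10 genes were chosen by name, and every probe set annotated to 1 of them alone was taken, which gave 19 of the 22215 probe sets that are no array controls.

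The values come from 6 arrays of U87 cells, a human glioblastoma line, kept for 16 h in medium with 10% serum before RNA was taken. In the IRE1dn group, 3 arrays held RNA of 1 clone, named IRE1.NCK DN, which expresses a dominant negative transgene of IRE1alpha, the endoplasmic reticulum stress sensor encoded by ERN1. In the ctrl group, 3 arrays held RNA of cells with the empty plasmid, for which the labels write clones in the plural. The labels do not say whether each replicate was a culture of its own. A p-value here therefore covers only the scatter of these arrays, which may be technical, and a difference between 1 clone and its controls cannot be told apart from an effect of the transgene.

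The arrays carried scaled signals in arbitrary units with medians of 18.4 to 20.9, and correlations of log2 signals of 0.973 to 0.980 within IRE1dn and 0.943 to 0.957 within ctrl. Array IRE1dn 3 had a 3′ to 5′ ratio of ACTB of 1.64, against 1.09 to 1.21 on the other 5. ERN1 itself was dim and did not pass the test (log2 difference -0.13, SE 0.33; limma adjusted p = 0.848), and its probe set need not lie in the transgene, so it does not check the labels. Of 6 glial and glioma line markers, VIM and CD44 were bright on every array, with means of 3825 and 1669 units in IRE1dn and 2787 and 1663 units in ctrl. These values are of the brightest probe set, and of the 8 CD44 sets 3 passed as lower and 1 was higher in value. NES averaged 34.4 units in IRE1dn and 21.3 units in ctrl, where the arrays gave 9.52, 9.66 and 44.9 units, and it did not pass. SOX2 averaged 5.26 units in IRE1dn and 4.47 units in ctrl. GFAP and S100B averaged under 2 units in both groups. The 12 measured markers of immune, endothelial, epithelial, neuronal and oligodendroglial cells summed to at most 20.6 units per cell type and array; 1 of them, the epithelial gene EPCAM, passed as lower, with means of 2.57 units in IRE1dn and 9.74 units in ctrl.

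Among the 19 probe sets, only that of JUNB, a JUN protein that can restrain other JUN proteins, passed the test: it was lower in IRE1dn. No probe set passed as higher in limma, and none was higher at an unadjusted p under 0.05 either. The test was limma's moderated comparison of log2(signal + 1.75), IRE1dn minus ctrl, with p-values adjusted by Benjamini-Hochberg over all 22215 probe sets and a threshold of 0.05. In the same fit 15.2% of all probe sets passed, 8.15% as higher and 7.05% as lower, so 1 of 19 is no more than the share called across the arrays. The signals of the 3 IRE1dn arrays lay apart from those of the 3 ctrl arrays for 1 of the 19, with IRE1dn below. That held for 33.5% of all probe sets, 15.2% with IRE1dn below and 18.4% with IRE1dn above. The median size of the log2 difference, regardless of sign, was 0.28 over the 19 and 0.40 over all probe sets. Of the 19 probe sets, 14 were lower in value in IRE1dn and 5 higher. Several are sets of the same gene, and 18 of the 19 intervals at 95% hold 0, so this split is a description only.

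**Figure D1:**
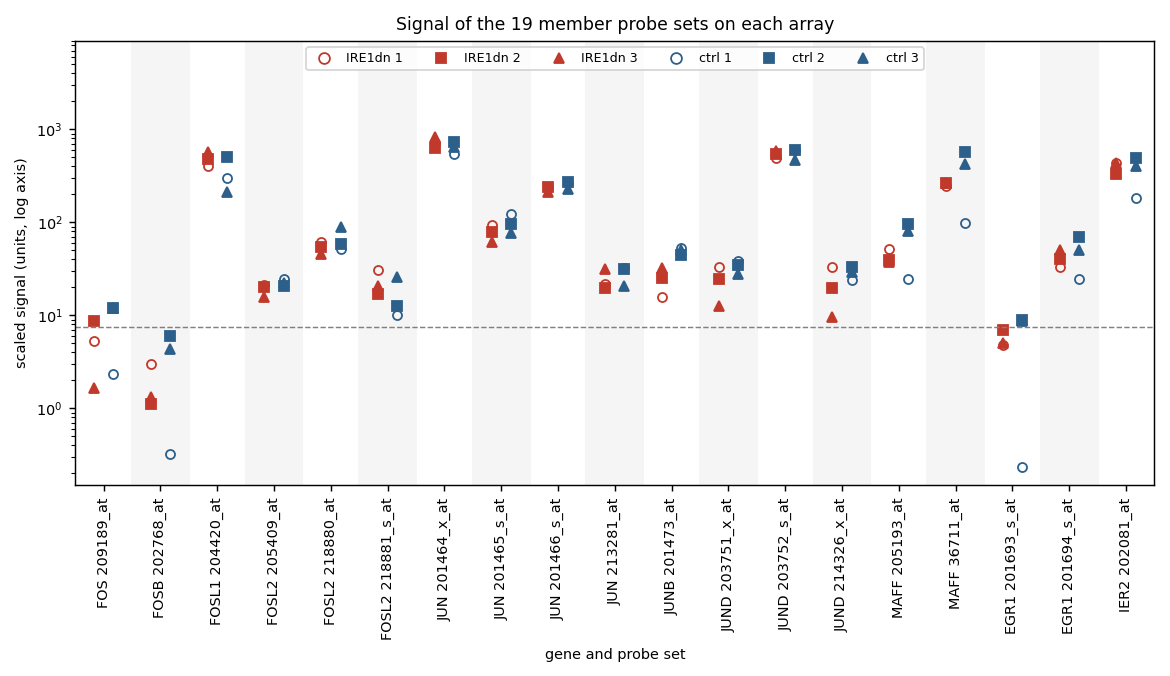
Scaled signal (log axis, units) of each of the 19 probe sets on each array, IRE1dn in red and left of ctrl in blue, 1 symbol per array; the dashed line marks 7.55 units, the level above which the mean log2 signal lies for the brighter 60% of probe sets. Only the JUNB arrays do not overlap between the groups, and ctrl 1 (open blue circle) lies far under the other ctrl arrays for FOS, FOSB, MAFF, EGR1 and IER2.

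JUNB had signals of 15.9, 25.3 and 32.2 units in IRE1dn, against 53.0, 44.6 and 50.8 units in ctrl. All IRE1dn arrays lay under all ctrl arrays, with means of 24.5 ± 8.16 units in IRE1dn and 49.5 ± 4.36 units in ctrl (SD, n = 3 each). The log2 difference was -1.01 (SE 0.29, 95% interval -1.67 to -0.35), with a limma adjusted p of 0.0467. This call stood near the threshold: it ended when any 1 of the 6 arrays was left out (limma adjusted p of 0.0590 to 0.131), with a pseudocount of 16 (0.0539), without the intensity trend (0.0638) and with the replicate number as a block (0.0760). The size moved less, between -1.22 and -0.75 with 1 array left out. An exact permutation test over 3 against 3 arrays cannot go below 0.1, which separated groups such as these reach. Over the 6 arrays the log2 signals most like those of JUNB, among 7800 other genes above 7.55 units, were those of OPTN, MLYCD and PFKM (Pearson r of 0.99, 0.99 and 0.98). These correlations include the difference between the groups, and 36 genes had an r above 0.95. The 250 bases before the annotated start of JUNB (RefSeq, GRCh38.p14, plus strand, chr19:12791236-12791485), shown because JUNB was the gene that passed, held none of the motifs searched below and so carry no capitals.
JUNB: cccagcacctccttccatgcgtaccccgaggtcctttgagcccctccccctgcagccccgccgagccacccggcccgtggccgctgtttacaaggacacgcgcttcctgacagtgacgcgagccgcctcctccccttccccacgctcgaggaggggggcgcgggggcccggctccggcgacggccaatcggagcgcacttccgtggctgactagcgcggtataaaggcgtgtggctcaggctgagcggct

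JUN, the founding member and the usual partner of FOS, had 4 probe sets, and none passed. Probe set 201466_s_at gave 243, 242 and 214 units in IRE1dn, against 268, 275 and 229 units in ctrl. Its log2 difference of -0.14 had a 95% interval of -0.48 to 0.20, the narrowest of the 19 together with JUND 203752_s_at. Set 201464_x_at, whose suffix marks probes that may also pick up similar transcripts, gave 708, 630 and 835 units in IRE1dn and 548, 726 and 648 units in ctrl. It leaned the other way, by 0.18 (SE 0.17; limma adjusted p = 0.561). The groups overlapped in both sets. Probe set 201465_s_at gave 94.8, 78.5 and 61.7 units in IRE1dn and 122, 95.4 and 78.0 units in ctrl (-0.32, SE 0.23), and 213281_at gave 21.6, 19.5 and 31.8 units in IRE1dn and 32.0, 31.9 and 20.8 units in ctrl (-0.21, SE 0.31).

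JUND, a JUN protein that many resting cells carry, did not pass in any of its 3 probe sets. Set 203752_s_at gave 493, 543 and 582 units in IRE1dn, against 596, 601 and 469 units in ctrl, with a log2 difference of -0.04 (SE 0.16, 95% interval -0.39 to 0.32; limma adjusted p = 0.917). The IRE1dn arrays all lay between array ctrl 3 and the other ctrl arrays, so the groups overlapped. The other sets spread more. Set 203751_x_at gave 33.2, 24.4 and 12.5 units in IRE1dn and 38.7, 35.0 and 27.6 units in ctrl (-0.58, SE 0.36), and set 214326_x_at gave 33.2, 19.95 and 9.60 units in IRE1dn and 24.3, 33.3 and 29.3 units in ctrl (-0.57, SE 0.41). In both, array IRE1dn 3 was the lowest of the 6. That array, which also had the raised ACTB ratio, was the lowest for 7 of the 19 probe sets and for 17.8% of all probe sets. The part of RNA quality in this was not tested.

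FOSL1 (FRA-1), a FOS protein without the transactivating end of FOS and a known driver of mesenchymal traits, was the member that leaned most towards higher values. It gave 403, 482 and 576 units in IRE1dn, against 301, 502 and 215 units in ctrl. Array ctrl 2 lay within the IRE1dn range and the other ctrl arrays lay below it. The means were 487 ± 86.6 units in IRE1dn and 339 ± 148 units in ctrl (SD, n = 3 each), a log2 difference of 0.59 (SE 0.28, 95% interval -0.05 to 1.23; limma adjusted p = 0.210). Without ctrl 2 the difference was 0.92 and passed (limma adjusted p = 0.0307), so 1 ctrl array decides whether FOSL1 is called.

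FOSL2 (FRA-2), the related FOS protein, had 3 probe sets that went in both directions. Set 218880_at gave 61.3, 54.9 and 46.2 units in IRE1dn, against 52.4, 58.0 and 89.1 units in ctrl (-0.26, SE 0.25). Set 205409_at gave 21.3, 20.4 and 15.9 units in IRE1dn and 24.8, 20.7 and 22.4 units in ctrl (-0.23, SE 0.29). Set 218881_s_at gave 30.7, 17.2 and 20.8 units in IRE1dn and 10.2, 12.6 and 26.2 units in ctrl (0.51, SE 0.40). The groups overlapped in each set, and limma adjusted p-values were 0.461 to 0.670. Of the 5 genes with several probe sets, only JUND and MAFF had all of theirs on the same side of 0.

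**Figure D2:**
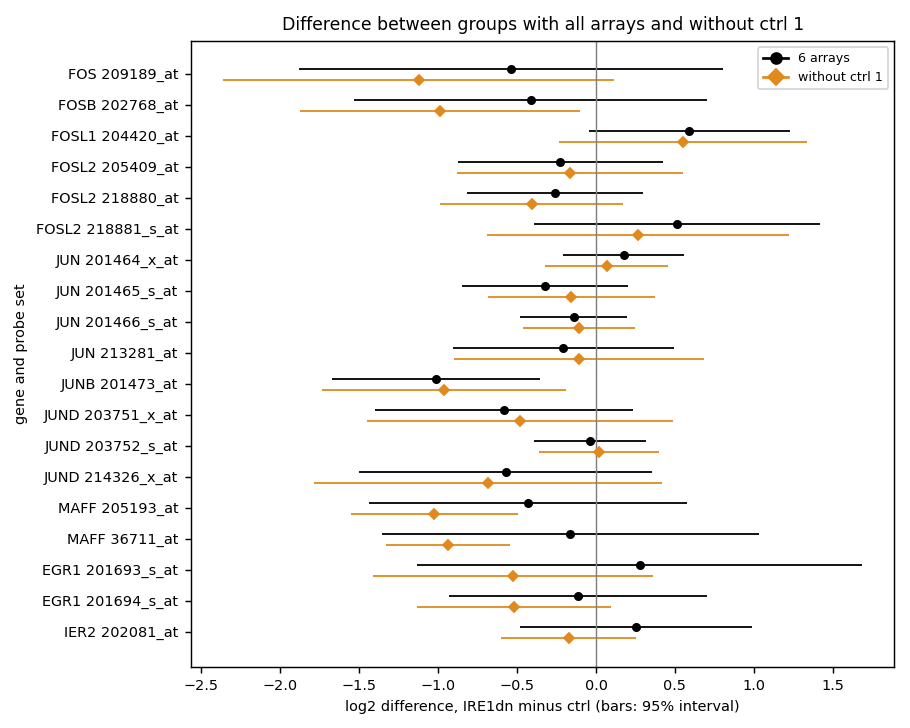
Log2 difference, IRE1dn minus ctrl, of each probe set with its 95% interval, from all 6 arrays (black circles) and without ctrl 1 (orange diamonds). With 6 arrays 18 of the 19 intervals hold 0, and without ctrl 1 the JUNB, FOSB and both MAFF intervals lie below 0, of which only those of MAFF passed the test. Array ctrl 1 was singled out after these values were seen.

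The intervals set how much could have been missed only within the scatter of these arrays, which may be technical. For 9 of the 19 probe sets the 95% interval lay within 2-fold in either direction, namely the 4 JUN sets, JUND 203752_s_at, IER2, EGR1 201694_s_at and the FOSL2 sets 205409_at and 218880_at. For the others a change of 2-fold or more lay inside the interval of at least 1 direction. The widest intervals were those of EGR1 201693_s_at, FOS and MAFF 36711_at, whose ctrl arrays disagreed among themselves. The IRE1dn arrays of FOS disagreed as well, at 5.35, 8.70 and 1.68 units, and without IRE1dn 3 its log2 difference was -0.09.

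That disagreement ran along 1 array. Array ctrl 1 was the lowest of the 6 for 8 of the 19 probe sets, against 21.8% of all probe sets, and ctrl 2 was the highest for 9, against 15.4%. In 7 probe sets, those of FOS, FOSB, MAFF, EGR1 and IER2, ctrl 1 lay over 2-fold under the mean of ctrl 2 and ctrl 3 on the log2 scale, which held for 5.42% of all probe sets. Array ctrl 1 was singled out after these values were seen, so no test of this pattern is given. Calls made without ctrl 1 are descriptions only. It was the highest array for 5 of the 19, all of them JUN, JUND, JUNB or FOSL2 sets. Over all probe sets ctrl 1 was both the lowest and the highest array more often than any other, in 21.8% and 20.98%. Its mean correlation to the other ctrl arrays was 0.950, against 0.953 for ctrl 2 and 0.946 for ctrl 3, and its ACTB ratio was 1.21, against 1.16 and 1.19.

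MAFF had this pattern in both of its probe sets. Set 36711_at gave 244, 268 and 268 units in IRE1dn, against 98.5, 578 and 428 units in ctrl. Set 205193_at gave 52.3, 39.5 and 37.1 units in IRE1dn, against 24.4, 95.6 and 81.2 units in ctrl. In both sets the 3 IRE1dn arrays lay close together, above ctrl 1 and below the other ctrl arrays. With all 6 arrays the log2 differences were -0.16 (SE 0.53) and -0.43 (SE 0.45), with limma adjusted p-values of 0.887 and 0.594. Without ctrl 1 the differences were -0.93 (SE 0.17) and -1.02 (SE 0.23), and both passed (limma adjusted p of 0.0138 and 0.0277). These sets are among those by which ctrl 1 was singled out, so the 2 calls are no support for lower MAFF. They were then the 2 of 19 probe sets called, both lower and both of 1 gene. In that fit 12.2% of all probe sets passed, 6.53% as higher and 5.71% as lower. The 2 shares are not alike, because the array left out was picked from values of the 19. Without ctrl 2 or ctrl 3 set 36711_at turned to 0.33 and 0.12, neither called.

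EGR1, which binds GC-rich sites and is among the fastest genes to respond to serum, was also lowest on ctrl 1. Set 201694_s_at gave 33.5, 40.3 and 51.0 units in IRE1dn, against 24.7, 69.9 and 50.7 units in ctrl. Set 201693_s_at, dim throughout, gave 4.87, 6.96 and 5.11 units in IRE1dn, against 0.236, 8.95 and 8.68 units in ctrl. Neither passed with all arrays (-0.11, SE 0.36, and 0.28, SE 0.63) or without ctrl 1 (-0.52 and -0.53; limma adjusted p of 0.261 and 0.441). The second set changed sign without ctrl 1.

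IER2 gave 441, 328 and 434 units in IRE1dn, against 183, 493 and 407 units in ctrl. Array ctrl 1 was again the lowest, and the other ctrl arrays lay above the IRE1dn mean of 401 ± 63.3 units, with a ctrl mean of 361 ± 160 units (SD, n = 3 each). The log2 difference was 0.26 (SE 0.33; limma adjusted p = 0.672), and -0.17 (SE 0.18) without ctrl 1.

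FOS and FOSB, the classic serum-induced members, were near the bottom of the array's range. FOS gave 5.35, 8.70 and 1.68 units in IRE1dn, against 2.32, 11.97 and 12.15 units in ctrl. FOSB gave 2.97, 1.11 and 1.33 units in IRE1dn, against 0.325, 5.98 and 4.38 units in ctrl. Together with EGR1 201693_s_at these are the 3 of 19 probe sets whose mean log2 signal lay under the 7.55-unit level, where background, which was not measured here, can make up much of a signal. Their log2 differences were -0.54 (SE 0.60) for FOS and -0.41 (SE 0.50) for FOSB, and -1.12 (SE 0.53) and -0.99 (SE 0.38) without ctrl 1, none of them called.

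**Figure D3:**
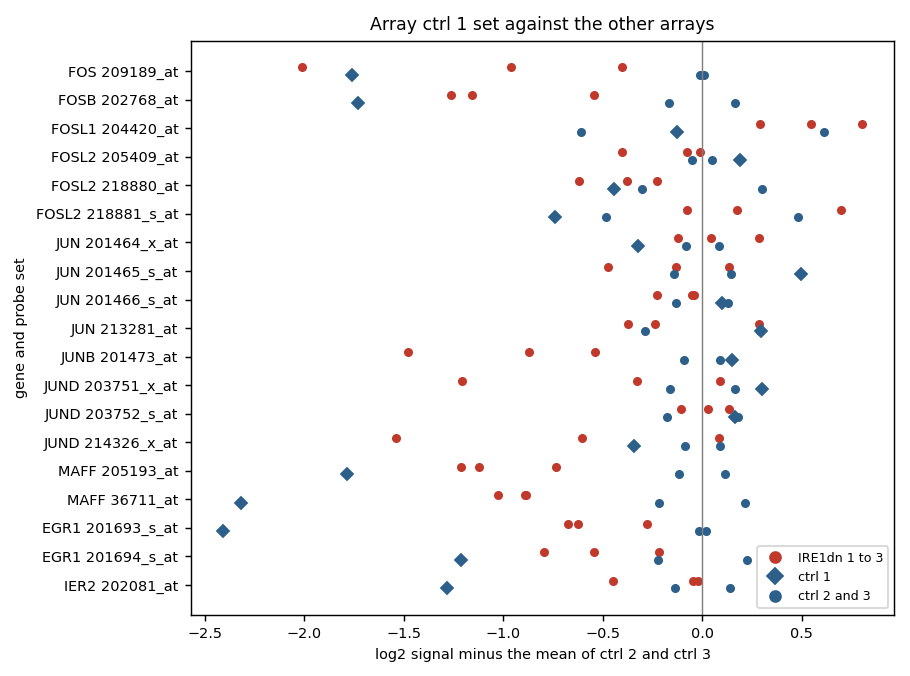
Log2 signal of each array minus the mean of ctrl 2 and ctrl 3, for each probe set, with IRE1dn arrays as red circles drawn above the ctrl arrays, ctrl 1 as a blue diamond, and ctrl 2 and 3 as blue circles. The diamond lies below -1 for FOS, FOSB, MAFF, EGR1 and IER2, and between -0.74 and 0.50 for the JUN, JUND, JUNB, FOSL1 and FOSL2 sets.

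Promoter sequence of the 250 bases before each annotated start was searched on both strands for AP-1 sites (TGANTCA), the cyclic AMP response element (TGACGTCA), the CArG box bound by serum response factor, an ETS site (CCGGAAGT) and the core bound by XBP1 and ATF6 (TGACGTGG). RefSeq entries of GRCh38.p14 matched 9 of the 10 genes with 10 starts, all but FOSL1. EGR1 held CArG boxes at positions -105 to -96 and -83 to -74 counted from its start, and 1.16% of 35116 promoters of the same length held at least 1. MAFF held a cyclic AMP response element at -54 to -47 of its first start and JUND held 1 at -200 to -193, an element found in 1.65% of promoters. No match to the AP-1 (6.57% of promoters), ETS (3.42%) or XBP1 and ATF6 core (0.612%) letters was found in the 10 windows. Only exact matches to the searched letters counted, so variant sites, and sites further upstream, were not looked for. The JUN window, for example, held TGACATCA, which matches none of the searched letters. The EGR1 and MAFF windows are shown because, of the 5 genes low on array ctrl 1, they were the ones with a match. The windows of the others, FOS, FOSB and IER2, held none of the motifs. Both lie on the plus strand (chr5:138465229-138465478 and chr22:38201744-38201993), with the matches in capitals, and a match is a description and not a bound site.
EGR1: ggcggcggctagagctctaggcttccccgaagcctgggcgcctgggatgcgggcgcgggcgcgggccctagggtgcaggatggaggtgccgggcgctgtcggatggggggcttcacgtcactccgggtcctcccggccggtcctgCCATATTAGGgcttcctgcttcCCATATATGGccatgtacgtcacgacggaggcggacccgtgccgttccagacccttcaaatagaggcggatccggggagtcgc
MAFF: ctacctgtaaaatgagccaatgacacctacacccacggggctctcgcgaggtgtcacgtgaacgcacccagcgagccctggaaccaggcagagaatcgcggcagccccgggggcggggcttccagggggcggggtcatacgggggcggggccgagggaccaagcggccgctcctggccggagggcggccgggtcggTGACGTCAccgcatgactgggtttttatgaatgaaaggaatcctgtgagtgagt

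The genes around these factors were read from the same fit, with each gene represented by its brightest probe set over all arrays. In that form 17.9% of 11963 genes passed, 9.20% as higher and 8.67% as lower, and 14.5% passed without ctrl 1, 7.46% as higher and 7.06% as lower. Of 7 measured other leucine zipper partners, 0 rose and 2 fell in limma, the same counts as at an unadjusted p under 0.05 and without ctrl 1, with a median log2 difference of -0.35. ATF3, a stress-induced repressor that dimerises with JUN proteins, had 14.3, 14.7 and 14.1 units in IRE1dn, against 86.5, 144 and 105 units in ctrl, and fell by 2.79 (SE 0.25; limma adjusted p = 0.000325), or by 2.05 with a pseudocount of 16. BATF3, which pairs with JUN proteins in immune cells, fell by 1.32 (SE 0.29; limma adjusted p = 0.0146), a call that ended without any 1 IRE1dn array.

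Of 25 measured other immediate early genes, 4 rose and 4 fell, a share of 32% against the 17.9% of all genes. Without ctrl 1, 3 rose and 5 fell, so the list went in both directions. It was chosen with earlier results of these data known. RHOB, a small GTPase, gave 138, 137 and 113 units in IRE1dn and 14.8, 18.8 and 20.8 units in ctrl, and rose by 2.73 (SE 0.22; limma adjusted p = 0.000173), or by 2.09 with a pseudocount of 16. The matricellular genes CCN2 and CCN1 rose by 2.18 (SE 0.29) and 1.13 (SE 0.26), and the zinc finger factor KLF6 by 0.74 (SE 0.19). ARC, a neuronal cytoskeletal gene, changed by -3.06 (SE 0.44; limma adjusted p = 0.00255), or -1.44 with a pseudocount of 16, with means of 2.74 ± 1.56 units in IRE1dn and 36.3 ± 14.1 units in ctrl (SD, n = 3 each). TNFAIP3, an inhibitor of NF-kB signalling, the MAP kinase phosphatase DUSP1 and the small GTPase GEM changed by -1.73 (SE 0.26), -1.41 (SE 0.31) and -0.60 (SE 0.15). The CCN1 call ended without any 1 IRE1dn array or ctrl 1, that of GEM without any array but ctrl 1, that of KLF6 without IRE1dn 2, IRE1dn 3 or ctrl 2, and that of DUSP1 without IRE1dn 1 or IRE1dn 3. Array ctrl 1 was the lowest of the 6 for 12 of these 25 genes, and the median of ctrl 1 minus the other ctrl arrays was -0.61, against -0.01 over all probe sets. This shift was not particular to the list. The median was -0.56 for the inhibitors and -0.32 for the AP-1 target genes below. It was -0.07 for the leucine zipper partners and -0.01 for the kinases and promoter factors.

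In the list of inhibitors of the pathway every call was a lower one. Of 14 measured genes, 0 rose and 5 fell in limma (2 and 7 at an unadjusted p under 0.05), and 6 fell without ctrl 1. Of all genes, 8.67% passed as lower, and 7.06% without ctrl 1. The median log2 difference was -0.49 over the list, with 1 probe set per gene, and 0.03 over all probe sets. DUSP6, the phosphatase that switches off ERK, gave 29.4, 43.5 and 26.7 units in IRE1dn, against 250, 374 and 256 units in ctrl, and fell by 3.08 (SE 0.24; limma adjusted p = 0.000124), as did all 3 of its probe sets. SPRY4 and SPRY2, feedback inhibitors of receptor tyrosine kinase signalling, changed by -1.53 (SE 0.34) and -1.29 (SE 0.35). TRIB1, a pseudokinase, changed by -1.39 (SE 0.23), and COPS5 (JAB1) by -0.73 (SE 0.16). COPS5 is a signalosome subunit known as a JUN coactivator, so 1 of the 5 calls is of a gene that is no inhibitor in that role. SPRY4 changed by -0.92 with a pseudocount of 16. The SPRY2 call ended without any array but ctrl 1 and with a pseudocount of 16 (limma adjusted p = 0.0590), that of SPRY4 without IRE1dn 3 or ctrl 2, and that of COPS5 without IRE1dn 2 or IRE1dn 3. NAB1 and NAB2, the corepressors of EGR1, did not pass (-0.51, SE 0.22, and -0.27, SE 0.41).

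Of 17 measured kinases and promoter factors upstream, 2 rose and 1 fell, a share of 17.6% against the 17.9% of all genes, and 1 rose and 1 fell without ctrl 1. RPS6KA5 (MSK1), a kinase that phosphorylates CREB and histone H3 at immediate early genes, rose by 1.84 (SE 0.32; limma adjusted p = 0.00592). MAP2K1 (MEK1) rose by 0.55 (SE 0.15) and MAP2K2 (MEK2) fell by 0.91 (SE 0.20). The MAP2K1 call ended without any array but ctrl 3, and that of MAP2K2 without IRE1dn 2, IRE1dn 3 or ctrl 2. SRF, which binds the CArG box, gave a mean of 43.2 units in IRE1dn and 26.5 units in ctrl (0.67, SE 0.26; limma adjusted p = 0.117), while its second probe set was lower in value in IRE1dn. Of the several probe sets of MAP2K2, RPS6KA5 and, among the immediate early genes, KLF6, 1 each passed, with the others on the same side of 0.

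Of 20 measured textbook AP-1 target genes, 2 rose and 8 fell, a share of 50% against the 17.9% of all genes, and 2 and 9 without ctrl 1. The list holds the cytokines and stromelysin already known to fall in these cells, so its count is no independent evidence. The interstitial collagenase MMP1 had 0.974, 0.0718 and 0.135 units in IRE1dn, against 31.7, 73.3 and 44.8 units in ctrl, and fell by 4.53 (SE 0.42; limma adjusted p = 0.000341). CXCL8, MMP3, IL6 and IL1B changed by -6.34 (SE 0.39), -5.47 (SE 0.30), -5.32 (SE 0.68) and -4.12 (SE 0.84). IL6 changed by -4.52 without ctrl 2 and -5.93 without ctrl 3, and IL1B by -2.88 without ctrl 2 and -4.84 without ctrl 1, with its call lost without IRE1dn 3. EDN1 and DCN rose by 5.64 (SE 0.37) and 4.28 (SE 0.21). With a pseudocount of 16 the sizes were -1.96 for MMP1, -4.78 for CXCL8, -4.65 for MMP3, -3.53 for IL6, -3.16 for IL1B, 3.67 for EDN1 and 3.37 for DCN, all still called. Others with known AP-1 sites did not pass in the probe set used: CCND1, the cyclin of early G1, gave 0.41 (SE 0.37), PLAUR, the urokinase receptor, -0.61 (SE 0.21; limma adjusted p = 0.0805), and MMP9 -0.13 (SE 0.32). These values are of the brightest probe set: of the 3 PLAUR sets, all lower in value, 1 of the others passed as lower, and the 2 CCND1 sets differed in sign.

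**Figure D4:**
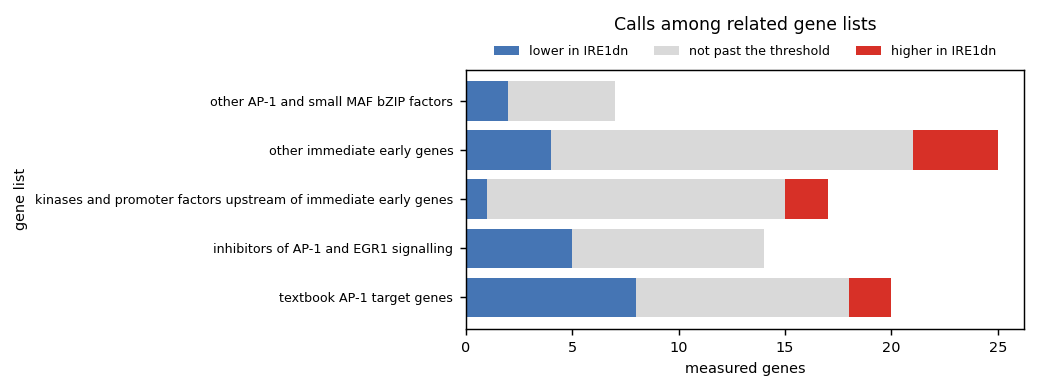
Number of measured genes in each list that passed as lower in IRE1dn (blue), did not pass (grey) or passed as higher (red). The inhibitor list, which includes the JUN coactivator COPS5, and the leucine zipper partners hold lower calls but no higher ones, and the other immediate early genes hold 4 of each.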

How the data were processed

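The deposited values are linear signal intensities of 22277 probe sets, 1 column per array, and the submitters' processing notes name GCOS 1.2. How probes were summarised and background was handled is not given in the sources used here. The deposited arrays were already scaled: each had a mean of 100.03 units after trimming 2% at each end, so a change shared by all transcripts would not be seen. Precision is limited by the number of arrays. Of 22215 probe sets other than the 62 controls, 19064 had 1 gene symbol, 1043 several and 2108 no listed gene, and 19052 of the 19064 were matched to RefSeq (GRCh38.p14) for current symbols. Signals were transformed to log2(signal + 1.75), with the 20th percentile of all values as the pseudocount, which makes fold changes of dim genes smaller. No filter on dim probe sets was used, so that every probe set entered the fit. IRE1dn and ctrl were tested against each other by limma 3.58.1 (R 4.3.3; two-sided lmFit and eBayes with intensity trend), a step also tested on simulated data. Intervals are limma's at 95%. The genes, lists and motifs were chosen with earlier results of these data known. By rule the text names all 19 probe sets and up to 5 genes of each list in each direction with the largest changes past the threshold. Other genes were named after their values were seen. The alternatives changed the pseudocount, filter, scaling, probe set choice, variance model and weights, added the replicate number as a block, or left out 1 array.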

Additional observations from a re-analysis of the deposited data

How the results depend on the processing

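The count of probe sets passing as higher was 0 with all arrays and 0 to 1 with 1 array left out, and was also 0 in the other 11 alternatives. The count passing as lower was 1 with all arrays and 0 to 2 with 1 array left out. It was 0 with a pseudocount of 16, with a filter at the 60th percentile (which left JUNB out), without the intensity trend and with the replicate number as a block. JUNB stayed past the threshold in 7 of 16 alternatives, and its limma adjusted p ranged from 0.0195 to 0.131. Of 300 values of the 19 probe sets over the alternatives 9 changed sign, all with 1 array left out and none called in the turned direction. Over those fits JUND 203752_s_at ranged from -0.15 to 0.027, MAFF 36711_at from -0.93 to 0.33, EGR1 201693_s_at from -0.53 to 0.69, EGR1 201694_s_at from -0.52 to 0.20 and IER2 from -0.17 to 0.54. The cause was not tested. Across all probe sets the number passing as lower was 1567, against 936 without the intensity trend and 593 to 1561 with 1 array left out, and the number passing as higher was 1810, against 771 to 1877. Of the 28 list genes called, 12 lost the call in at least 1 alternative and none changed sign. Without the intensity trend the calls of CCN1, DUSP1, GEM, KLF6, MAP2K1, MAP2K2, COPS5, SPRY2 and TIMP1 ended (limma adjusted p of 0.0540 to 0.123), and with the replicate block those of KLF6 (0.05004) and MAP2K1 (0.0696). Equal replicate numbers did not pair the arrays: correlations of deviations from the group means were -0.12, 0.04 and 0.00 for numbers 1, 2 and 3. With that block no member was called.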

Other observations

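Array ctrl 1 was also the lowest array for several genes of the lists that did not pass the test with all arrays, of which some are given here. MYC, a growth-promoting factor, had a mean of 438 units in IRE1dn and 259 units in ctrl, with 152 units on ctrl 1 (log2 difference 0.81, SE 0.28; limma adjusted p = 0.0886). KLF4, a zinc finger factor, gave 186 units in IRE1dn and 179 units in ctrl, with 96.0 units on ctrl 1 (0.16, SE 0.30). MCL1, an inhibitor of apoptosis, gave 668 units in IRE1dn and 521 units in ctrl, with 380.1 units on ctrl 1 (0.39, SE 0.19), and 2 of its 5 probe sets were higher in value in IRE1dn. CCND1, the AP-1 target named above, gave 398 units in IRE1dn and 334 units in ctrl, with 145 units on ctrl 1. PPP1R15A, the stress-induced phosphatase subunit, and DUSP5, an ERK phosphatase, passed only without ctrl 1, at -1.22 and -1.50 (limma adjusted p of 0.0135 and 0.00438), against -0.87 and -1.002 with all arrays. For PPP1R15A and DUSP5 ctrl 1 was the lowest ctrl array, at 67.4 and 48.6 units, but not the lowest array. That was IRE1dn 2 for PPP1R15A and IRE1dn 3 for DUSP5. All genes of this paragraph were named after their values were seen, and the cause of the low values on ctrl 1 was not tested.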
